A study of Homo sapiens with 9 samples.

Results

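The genes described here are those of the cellular response to low oxygen and of glycolysis, 48 named genes in all, of which 47 had a probe set on the array and 46 were bright enough to be tested, out of 19775 named genes and 12587 tested genes. They were taken from a fixed list of symbols, chosen with earlier results of these data known. They were set in 3 classes: 8 regulators of the hypoxia-inducible factor (HIF), 23 genes of glucose entry and glycolysis, and 17 other HIF targets. Each gene was read from 1 probe set, the one with the highest mean log2 signal over the 9 arrays. U87 cells, a long-established human glioma line, were transfected at 50 nM with miR-376a*A, with miR-376a*G or with a control duplex and were harvested after 72 h. Total RNA of 3 samples per duplex, called biological replicates in the labels, was hybridised to 9 Affymetrix arrays. All 3 groups shared the cell line, the lipid reagent, the dose and the time, and no change of oxygen supply is mentioned in the labels. The cells are a single line, so no other glioma line bears on these values.

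HIF is a pair of proteins, an alpha subunit (HIF1A or EPAS1) and its partner ARNT, that switches on genes when oxygen is short. When oxygen is plentiful, the prolyl hydroxylases EGLN1, EGLN2 and EGLN3 mark the alpha subunits, VHL has them destroyed, and HIF1AN blocks their contact with the coactivators CREBBP and EP300. HIF targets raise glucose uptake and glycolysis, hold pyruvate back from the mitochondria, and encode secreted factors such as VEGFA that call in blood vessels, a programme known from the low-oxygen zones of glioblastoma.

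Cells can edit the miR-376a* transcript at an adenosine, turning it into inosine, which is read as guanosine. Of the duplexes, miR-376a*A represents the unedited microRNA and miR-376a*G the edited one. Its reference sequence is shown because the duplexes are forms of it, with the seed, bases 2 to 8 from the 5′ end, in capitals. The sequence is RefSeq's for hsa-miR-376a-5p, from MIR376A1 at chr14:101040788-101040809 on the plus strand of GRCh38.p14.
hsa-miR-376a-5p: gUAGAUUCuccuucuaugagua
The labels do not give the base that differs between the duplexes, so the edited sequence is not printed.

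Signal is a linear intensity per probe set that had been scaled before deposit, and differences are given as log2(signal + 1), tested with limma over all 9 arrays and adjusted by Benjamini-Hochberg over the 12587 tested genes. A gene was called at an adjusted p under 0.05. The array median ran from 18.0 to 21.1 for miR-376a*A, from 21.7 to 24.6 for miR-376a*G and from 18.5 to 22.0 for control, and the highest signal of an array ran from 3209 to 4336. The glioma markers VIM (2107 to 2975) and CD44 (1475 to 2193) were bright on every array, whereas S100B (0.68 to 1.30) and GFAP (1.48 to 5.66) were near 0. The ratio of 3′ to 5′ GAPDH control probe sets, a measure of RNA integrity, was -0.122, -0.174 and -0.103 in log2 for miR-376a*A, -0.193, -0.177 and -0.142 for miR-376a*G and -0.096, -0.076 and -0.120 for control. It was lower on every miR-376a*G array than on every control array, and its part in the results was not tested. The neuronal markers MAP2 and SYT1 were also lower under miR-376a*G, the neuronal list being 2 of 3 tested genes lower with a summed signal of 330 to 358 for miR-376a*G, against 855 to 1889 for control; its most specific marker RBFOX3 stayed between 8.29 and 19.2 on all 9 arrays, and the list's part in the results was not tested.

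A pair of arrays went against their labels, and this touches every comparison that uses them. Across tested genes, miR-376a*A replicate 1 as labelled correlated at 0.987 to 0.990 with control replicates 2 and 3, but at 0.925 to 0.934 with the other miR-376a*A arrays. Control replicate 1 as labelled correlated at 0.982 to 0.990 with miR-376a*A replicates 2 and 3, but at 0.934 to 0.935 with the other control arrays. The 3 miR-376a*G arrays correlated at 0.986 to 0.988 with each other. In 28 of the 46 tested hypoxia and glycolysis genes (60.9%, against 36.0% of all tested genes) the miR-376a*A replicate 1 array was the lowest of its group while control replicate 1 was the highest of its own. The reverse, with miR-376a*A replicate 1 highest and control replicate 1 lowest, held in 3 of the 46 (6.52%, against 33.7% of all tested genes). Groups are given as labelled, and the counts and the genes with per-array values are mostly given again without both arrays, which leaves 2 miR-376a*A, 3 miR-376a*G and 2 control arrays. Both arrays were picked from these same signals, so the p-values and calls without them are conditional on that choice. Per-array values below follow the order of replicates 1, 2 and 3.

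The main difference was between miR-376a*G and control. Of the 46 tested genes, 30 were lower under miR-376a*G and 1, HIF1AN, was higher, where 15.4% of all tested genes were lower and 18.0% were higher. The median log2 difference was -1.09, against 0.12 over all tested genes. Of the 30, EGLN3 and ANGPTL4 lay below the array median on all 3 miR-376a*G arrays and entered the test through the other groups alone, so the filter favoured a difference in them. The 44 other tested genes held 28 lower and 1 higher. By class, 3 of 7 HIF regulators, 13 of 23 glycolytic genes and 14 of 16 other HIF targets were lower, with EGLN3 counted among the 3 and ANGPTL4 among the 14. Without both arrays 33 genes were lower and 3 were higher, with 25.0% and 31.2% of all genes called in those directions, and all 30 were among the 33. When arrays were scaled to the hybridisation controls instead, the median of all tested genes moved to 0.51 and the counts became 25 lower and 7 higher. That scaling moves all genes of an array together, so it cannot change the gap of -1.21 between the median of these genes and that of all genes. The shares of all tested genes called under it are not given here, so its counts do not set these genes apart. In bulk RNA, fewer cells of a kind and less RNA per cell cannot be told apart. The scaling done before deposit removes any change of total messenger RNA.

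miR-376a*A against control gave 0 calls among the 46 genes as labelled, as it did among all 12587 genes (0.0%), with 5 of the 46 under an unadjusted p of 0.05. Without both arrays 26 of the genes were higher under miR-376a*A and 3 were lower, where 19.0% and 22.9% of all tested genes were called in those directions. Set against miR-376a*G directly, miR-376a*A was higher in 34 genes and lower in 1, where 16.4% and 21.8% of all tested genes were called. That contrast is the test of the difference between the forms, and without both arrays it gave 39 higher and 2 lower, with 25.7% and 34.0% of all genes called. Scaling to hybridisation controls, which moves all genes of an array together, turned it to 24 higher and 12 lower.

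**Figure D1:**
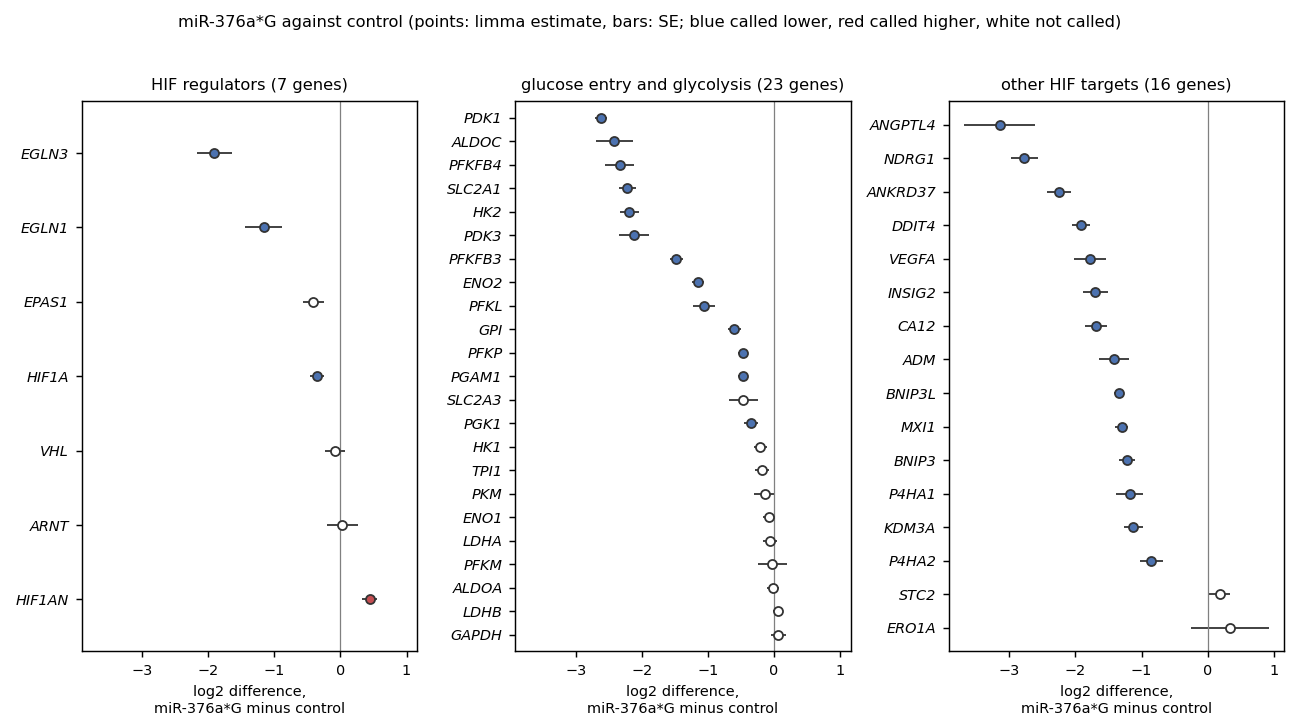
Log2 difference of miR-376a*G minus control (horizontal axis, limma estimate, bars are SE) for the 7, 23 and 16 tested genes of the 3 classes, from all 9 arrays as labelled. The 30 genes called lower are blue, HIF1AN is red and genes not called are white; the regulators' median of -0.35 turned to 0.05 when arrays were scaled to hybridisation controls.

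HIF binds DNA at a short core, of which ACGTG is 1 form. Promoters were read for this form on both strands, from 250 bases before to 50 bases after each gene's first listed start in RefSeq (GRCh38.p14). Other forms were not counted, and below the core means ACGTG alone. Of 46 tested genes 41 had a promoter in the table, and 17 of these (41.5%) held the core, against 26.7% of promoters of all tested genes and 21.6% of all 27305 promoters. The core stood in 1 of 6 HIF regulators, 9 of 22 glycolytic genes and 7 of 13 other HIF targets. It stood in 13 of 27 genes that were lower under miR-376a*G (48.1%) and in 4 of the 14 others (28.6%). A match is a description of these letters in this window, not a binding site.

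The 250 bases before the start are shown for ANGPTL4, ALDOC, ANKRD37 and HK2, the 4 genes with the largest fitted difference under miR-376a*G among those whose promoter held the core, and for LDHA, which holds it 3 times and was not called, chosen after its values were seen. Capitals mark the core as read on the gene's strand, ACGTG or its complement CACGT, and CACGTG where the strands overlap. ANGPTL4 lies at chr19:8363905-8364154 (plus strand), ALDOC at chr17:28576896-28577145 (minus), ANKRD37 at chr4:185396591-185396840 (plus), HK2 at chr2:74833877-74834126 (plus) and LDHA at chr11:18394313-18394562 (plus).
ANGPTL4: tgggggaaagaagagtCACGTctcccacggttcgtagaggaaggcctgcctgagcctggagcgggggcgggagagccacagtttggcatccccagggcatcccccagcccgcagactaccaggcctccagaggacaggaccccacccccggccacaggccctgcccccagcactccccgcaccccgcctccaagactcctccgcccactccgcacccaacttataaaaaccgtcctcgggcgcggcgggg
ALDOC: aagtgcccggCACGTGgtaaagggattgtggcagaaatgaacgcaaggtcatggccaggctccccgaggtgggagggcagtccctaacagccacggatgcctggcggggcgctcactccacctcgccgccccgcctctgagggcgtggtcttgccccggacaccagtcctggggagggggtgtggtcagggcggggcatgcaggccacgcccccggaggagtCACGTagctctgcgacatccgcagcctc
ANKRD37: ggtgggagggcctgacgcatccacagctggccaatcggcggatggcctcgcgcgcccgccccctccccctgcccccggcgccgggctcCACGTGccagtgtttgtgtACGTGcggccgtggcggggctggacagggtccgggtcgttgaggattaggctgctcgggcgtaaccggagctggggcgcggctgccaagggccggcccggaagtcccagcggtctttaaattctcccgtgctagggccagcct
HK2: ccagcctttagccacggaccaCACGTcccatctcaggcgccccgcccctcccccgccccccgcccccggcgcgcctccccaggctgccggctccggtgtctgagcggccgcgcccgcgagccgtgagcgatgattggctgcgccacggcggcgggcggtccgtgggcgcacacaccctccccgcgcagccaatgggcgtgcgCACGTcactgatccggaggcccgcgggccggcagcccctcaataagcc
LDHA: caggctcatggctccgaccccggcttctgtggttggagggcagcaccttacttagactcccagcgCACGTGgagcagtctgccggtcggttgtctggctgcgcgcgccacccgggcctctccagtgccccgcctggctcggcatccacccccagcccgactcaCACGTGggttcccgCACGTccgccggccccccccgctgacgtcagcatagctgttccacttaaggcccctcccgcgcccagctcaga
The core appears in 1 stretch for ANGPTL4, in 2 each for ALDOC, ANKRD37 and HK2, and in 3 for LDHA.

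Among the HIF regulators, the prolyl hydroxylases EGLN1 and EGLN3 were lower under miR-376a*G and the asparaginyl hydroxylase HIF1AN was higher, while the alpha subunits differed by less. The class had a median difference of -0.35 between miR-376a*G and control, which turned to 0.05 under scaling to hybridisation controls. EGLN3, a prolyl hydroxylase that is itself a HIF target, had a signal of 36.4, 60.2 and 55.03 on miR-376a*A arrays, 15.3, 11.6 and 9.39 on miR-376a*G arrays and 60.7, 43.6 and 39.9 on control arrays. All 3 miR-376a*G arrays lay below the 6 others. Since those 3 signals were below the median of their arrays, the difference is given as a bound against that median. With all arrays as labelled, EGLN3 was at least 1.99-fold lower under miR-376a*G than under control. It was at least 2.08-fold higher under miR-376a*A than under miR-376a*G. The bound against control includes control replicate 1, the highest control array (60.7), and was not computed without it. The fitted log2 difference between miR-376a*G and control depended on the pseudocount, at -1.91 with 1, -1.18 with 16 and -0.55 with 64 (adjusted p = 0.000827, 0.00127 and 0.00238), and another probe set gave -3.54. EGLN3 passed the filter through the other groups alone, so these p-values follow a choice that favoured a difference.

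EGLN1, the main oxygen sensor among the prolyl hydroxylases, had a signal of 330.5, 558 and 611 for miR-376a*A, 181, 169 and 184 for miR-376a*G and 586, 332 and 326 for control. The miR-376a*G arrays were again the lowest, while miR-376a*A replicate 1 lay with control replicates 2 and 3, and control replicate 1 lay with miR-376a*A replicates 2 and 3. EGLN1 differed by -1.16 between miR-376a*G and control (SE 0.28, adjusted p = 0.0114; -0.88 without both arrays). Between miR-376a*A and control the difference was 0.28 as labelled (adjusted p = 0.886) and 0.83 without both arrays (SE 0.09, adjusted p = 5.32e-05).

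HIF1AN, the asparaginyl hydroxylase that blocks coactivator contact, had a signal of 205, 205 and 233 for miR-376a*A, 310.5, 269 and 279.9 for miR-376a*G and 225, 209 and 198 for control. It was the gene of the 46 that stood higher on every miR-376a*G array and passed the test. The difference between miR-376a*G and control was 0.44 (SE 0.12, adjusted p = 0.0171; 0.49 without both arrays), and it missed the threshold without miR-376a*G replicate 1 (adjusted p = 0.0776), miR-376a*G replicate 3 (0.0514), control replicate 2 (0.055) or control replicate 3 (0.0631). Its other probe sets went the other way, at -0.17 and -0.30, and were not called (adjusted p = 0.287 and 0.11).

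HIF1A, the alpha subunit of most cells, had a signal of 1995, 2428 and 2413 for miR-376a*A, 1464, 1574 and 1493 for miR-376a*G and 2138, 1717 and 1950.2 for control. The groups miR-376a*G and control did not overlap, but the difference was small, at -0.35 (SE 0.10, adjusted p = 0.0285; -0.28 without both arrays). That call was lost without any of miR-376a*G replicates 1, 2 and 3 or control replicates 1 and 3, where the adjusted p ran from 0.0535 to 0.0938, and the value turned to 0.05 under scaling to hybridisation controls. EPAS1, the alpha subunit also called HIF-2 alpha, had a signal of 1329, 2033 and 1986 for miR-376a*A, 1135, 1212 and 1179 for miR-376a*G and 1820.0, 1423 and 1469 for control. It differed by -0.41 between miR-376a*G and control (SE 0.16, adjusted p = 0.0848) and by -0.30 without both arrays (SE 0.07, adjusted p = 0.00421), and it was also called without miR-376a*A replicate 1 alone (adjusted p = 0.0101).

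VHL, the destruction adaptor, and ARNT, the shared partner, were dim and missed the threshold between miR-376a*G and control. VHL had a signal of 102, 101 and 80.8 for miR-376a*A, 121, 102 and 104 for miR-376a*G and 112, 131 and 104 for control, with a difference of -0.08 between miR-376a*G and control (adjusted p = 0.719). ARNT had a signal of 78.6, 65.0 and 47.1 for miR-376a*A, 76.6, 64.9 and 68.5 for miR-376a*G and 51.4, 83.6 and 75.3 for control, with a difference of 0.02 (adjusted p = 0.945). The miR-376a*G and control groups overlapped for both genes, while the miR-376a*A arrays of VHL lay below both other groups. A dimmer probe set of ARNT was higher under miR-376a*G, at 0.86 (adjusted p = 0.00767). EGLN2, the remaining prolyl hydroxylase, had a signal of 1.36 to 11.3 and was too dim to test. Between the forms, miR-376a*A was higher than miR-376a*G for EGLN1 (1.44), EGLN3, HIF1A (0.59) and EPAS1 (0.58) and lower for HIF1AN (-0.42, adjusted p = 0.02), where HIF1A turned to -0.08 and EPAS1 to -0.09 under scaling to hybridisation controls.

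**Figure D2:**
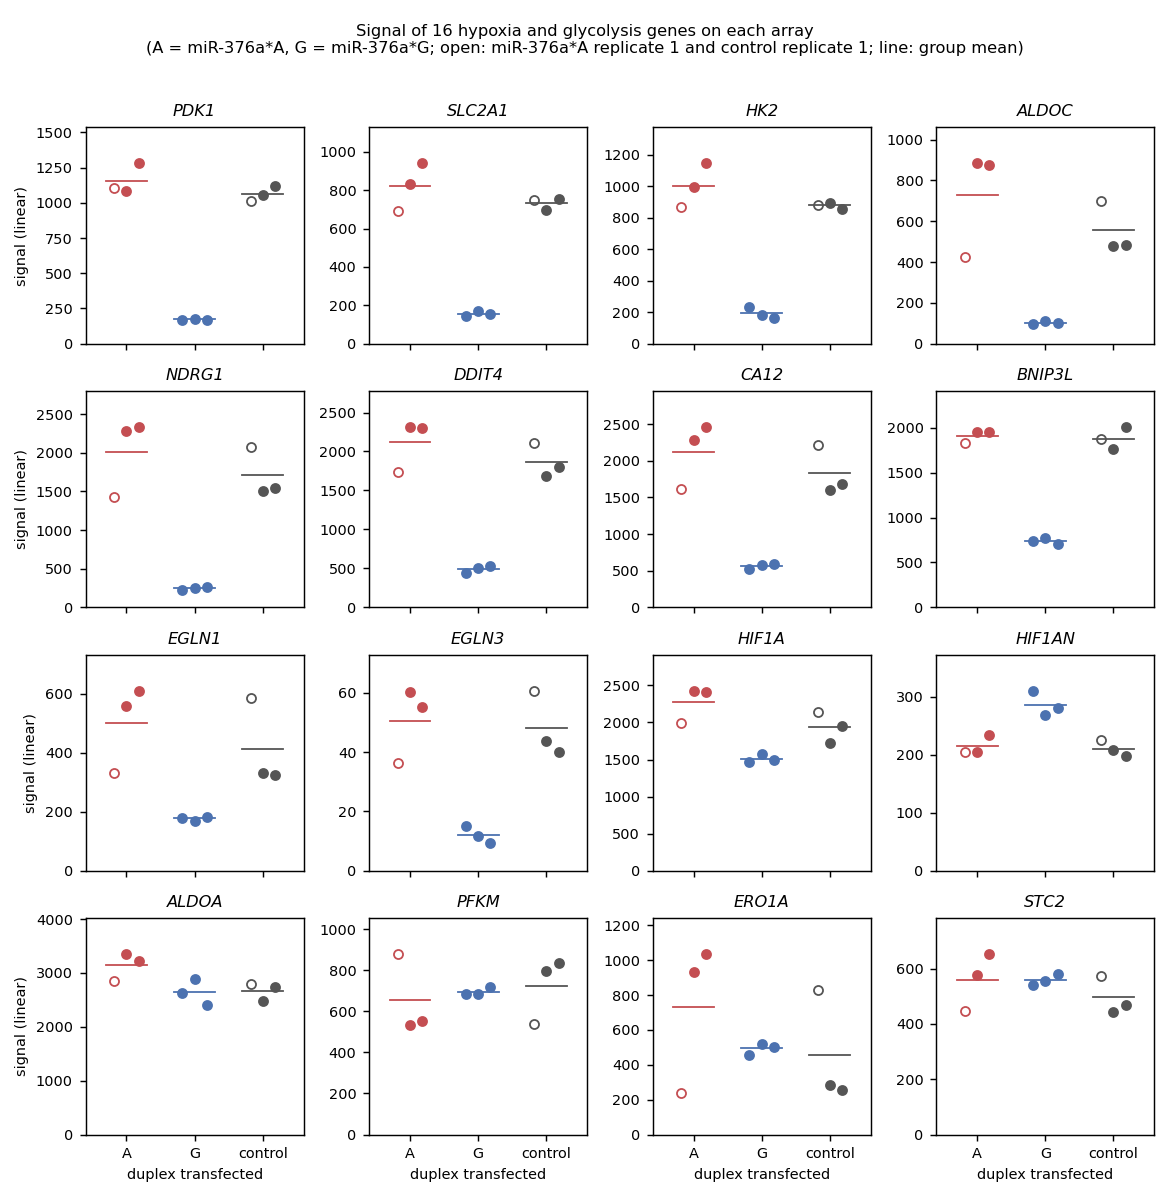
Linear signal of 16 genes on each of the 9 arrays (vertical axes start at 0; columns are the duplexes transfected, lines are group means and open circles are replicate 1 of miR-376a*A and of control). The miR-376a*G arrays lie lowest for 11 of the genes shown, from PDK1 to HIF1A, while HIF1AN lies highest there and ALDOA, PFKM, ERO1A and STC2 overlap with control.

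Of the 23 genes of glucose entry and glycolysis, 13 were lower under miR-376a*G and 0 were higher, with 13 under an unadjusted p of 0.05. The 8 of smallest p were the transporter SLC2A1, the hexokinase HK2, the phosphofructokinase regulators PFKFB3 and PFKFB4, the isoforms ALDOC and ENO2, and the pyruvate dehydrogenase kinases PDK1 and PDK3. The class had a median of -0.47 and ran from -2.62 for PDK1 to 0.07 for GAPDH. Without both arrays 15 were lower and 0 were higher, where 25.0% and 31.2% of all tested genes were. Under scaling to hybridisation controls, which moves all genes of an array together, 9 were lower and 5 higher, with a median of -0.07.

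PDK1, a kinase that shuts pyruvate dehydrogenase and keeps pyruvate from the mitochondria, had a signal of 1106, 1082 and 1281 for miR-376a*A, 167, 179 and 169.8 for miR-376a*G and 1010.3, 1059 and 1117 for control. Every miR-376a*G array lay far below the other 6, at 6.14-fold lower than control (log2 difference -2.62, SE 0.10, adjusted p = 1.68e-06; -2.65 without both arrays). PDK3, another kinase of this family, had a signal of 258, 451 and 455 for miR-376a*A, 74.9, 78.1 and 78.3 for miR-376a*G and 408, 325 and 292 for control. It was 4.35-fold lower under miR-376a*G (-2.12, SE 0.22, adjusted p = 0.000178; -1.99 without both arrays). In both genes miR-376a*G did not overlap with either other group, while miR-376a*A and control overlapped.

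SLC2A1, the glucose transporter GLUT1, had a signal of 694, 831 and 939.8 for miR-376a*A, 146, 171 and 154 for miR-376a*G and 751, 695 and 755 for control. It was 4.65-fold lower under miR-376a*G than under control (-2.22, SE 0.13, adjusted p = 1.17e-05; -2.20 without both arrays). HK2, the inducible hexokinase that traps glucose in the cell, had a signal of 866, 995 and 1145 for miR-376a*A, 232, 183 and 166 for miR-376a*G and 883, 891 and 858 for control. Neither gene's miR-376a*G arrays came near the others, and HK2 was 4.56-fold lower (-2.19, SE 0.15, adjusted p = 1.86e-05; -2.18 without both arrays). In both genes the signals of miR-376a*A and control overlapped.

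PFKFB3 and PFKFB4 make the sugar phosphate that activates phosphofructokinase. PFKFB3 had a signal of 747, 713 and 860.4 for miR-376a*A, 291, 269.8 and 259.7 for miR-376a*G and 725, 776 and 789 for control, a difference of -1.48 between miR-376a*G and control (SE 0.10, adjusted p = 2.28e-05; -1.51 without both arrays). PFKFB4 had a signal of 852, 1427 and 1555 for miR-376a*A, 189, 188 and 204 for miR-376a*G and 1193, 919.8 and 854 for control, a difference of -2.33 (SE 0.22, adjusted p = 9.94e-05; -2.19 without both arrays). The miR-376a*G arrays were lowest in both. Without both arrays the difference between miR-376a*A and control was 0.75 for PFKFB4 (adjusted p = 8.2e-05) and 0.00 for PFKFB3 (adjusted p = 0.991).

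ALDOC, a brain-type aldolase, had a signal of 426, 884 and 874 for miR-376a*A, 94.8, 111 and 99.3 for miR-376a*G and 701, 479 and 486 for control. It was 5.33-fold lower under miR-376a*G than under control (-2.41, SE 0.28, adjusted p = 0.000289; -2.24 without both arrays). ENO2, the neuron-type enolase, had a signal of 1101, 1148 and 1164 for miR-376a*A, 507, 516 and 582 for miR-376a*G and 1128, 1277 and 1161 for control. It was 2.22-fold lower (-1.15, SE 0.09, adjusted p = 3.53e-05; -1.19 without both arrays), again with no overlap. The 5 other members lower under miR-376a*G were PFKL (-1.06), the liver-type phosphofructokinase, GPI (-0.60), the isomerase after hexokinase, PFKP (-0.48), the platelet-type phosphofructokinase, PGAM1 (-0.47), the phosphoglycerate mutase, and PGK1 (-0.35), the kinase that makes the first ATP of the pathway. Without both arrays these 5 gave -1.13, -0.55, -0.51, -0.43 and -0.30, all called.

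The call of PGK1 (adjusted p = 0.0358) was lost without miR-376a*G replicate 1 (0.117) or 3 (0.123) or control replicate 1 (0.0872) or 3 (0.11), and its value turned to 0.05 under scaling to hybridisation controls. The 10 members not called were SLC2A3 (-0.46), a neuron-type glucose transporter, HK1 (-0.21), the constitutive hexokinase, TPI1 (-0.18), PKM (-0.14), ENO1 (-0.08), LDHA (-0.06), PFKM (-0.03), ALDOA (-0.02), LDHB (0.06) and GAPDH (0.07). TPI1, GAPDH, ENO1 and PKM are enzymes of the lower pathway, in which PGK1 and PGAM1, both called lower, act between GAPDH and ENO1, and LDHA and LDHB are the subunits of lactate dehydrogenase. Without both arrays SLC2A3 was lower, at -0.70 (adjusted p = 1.07e-05), as was PFKM, at -0.23 (adjusted p = 0.0199). SLC2A3 was also called without control replicate 1 alone (-0.70, adjusted p = 0.0177).

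The glycolytic members with the largest p were ALDOA, the main aldolase, and PFKM, the muscle-type phosphofructokinase. ALDOA had a signal of 2849, 3348 and 3223 for miR-376a*A, 2635, 2897 and 2410.1 for miR-376a*G and 2796, 2483 and 2738 for control (-0.02, SE 0.09, adjusted p = 0.909). PFKM had a signal of 878, 534 and 552 for miR-376a*A, 684, 685 and 719.6 for miR-376a*G and 537, 798 and 833 for control (-0.03, SE 0.22, adjusted p = 0.934). In PFKM the miR-376a*A and control arrays each split, replicate 1 of each lying with the other group. A p that misses the threshold does not show that these genes stayed level.

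Brightness moved with these values. Of the 9 members whose control mean was above 2000, a level chosen after seeing the data, 3 were lower under miR-376a*G (33.3%, median -0.08), and of the 37 others 27 were lower (73.0%, median -1.18). Over all tested genes, 13.3% of 173 above that level and 15.4% of the rest were lower. ENO1 reached 84.4% to 93.1% of the highest signal of its array, GAPDH 69.1% to 80.2% and ALDOA 69.9% to 79.1%. All of the 9 but BNIP3 were glycolytic genes, so brightness and class overlapped. The part of brightness in the results was not tested, but dimmer probe sets of the same genes can be set beside these.

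PGK1's brightest probe set gave -0.35, and the others, by falling control mean, gave -0.99 at 2339, -0.47 at 2175, -1.17 at 1327, -1.84 at 285 and -0.24 at 155. The last of these was not called (adjusted p = 0.458) and the 4 before it were, so the differences did not follow brightness in order. For ALDOA the other probe sets gave -0.24 at a control mean of 2629.8 (not called, adjusted p = 0.0978) and -0.68 at 1354 (adjusted p = 0.000269). For ENO1 they gave -0.04 at 2709.7 and -0.07 at 238, neither called (adjusted p = 0.791 and 0.728), and -0.92 at 154 (adjusted p = 0.0234). The other probe sets of TPI1 and GAPDH were not called, giving -0.31 and -0.18 for TPI1 and 0.13 and 0.21 for GAPDH. These enzymes have near-identical pseudogenes, so their probe sets may read several transcripts. HK2 was the gene with probe sets called both ways, at -2.19 for the bright one, against 1.58 and 1.17 for others with control means of 12.1 and 22.6. The dimmest had a mean of 13.4 for miR-376a*A and 37.6 for miR-376a*G. Its miR-376a*A and control means lay below the array medians, so the filter favoured a difference in it. In all, 102 probe sets of these genes were tested, of which 59 were lower and 4 higher, where 15.6% and 16.6% of all 24310 tested probe sets were called in those directions. The counts include probe sets that passed the filter through some groups alone. Examples are the other probe sets of EGLN3 and ANGPTL4, with miR-376a*G means of 3.21 and 5.92, so the filter favoured a difference in them.

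**Figure D3:**
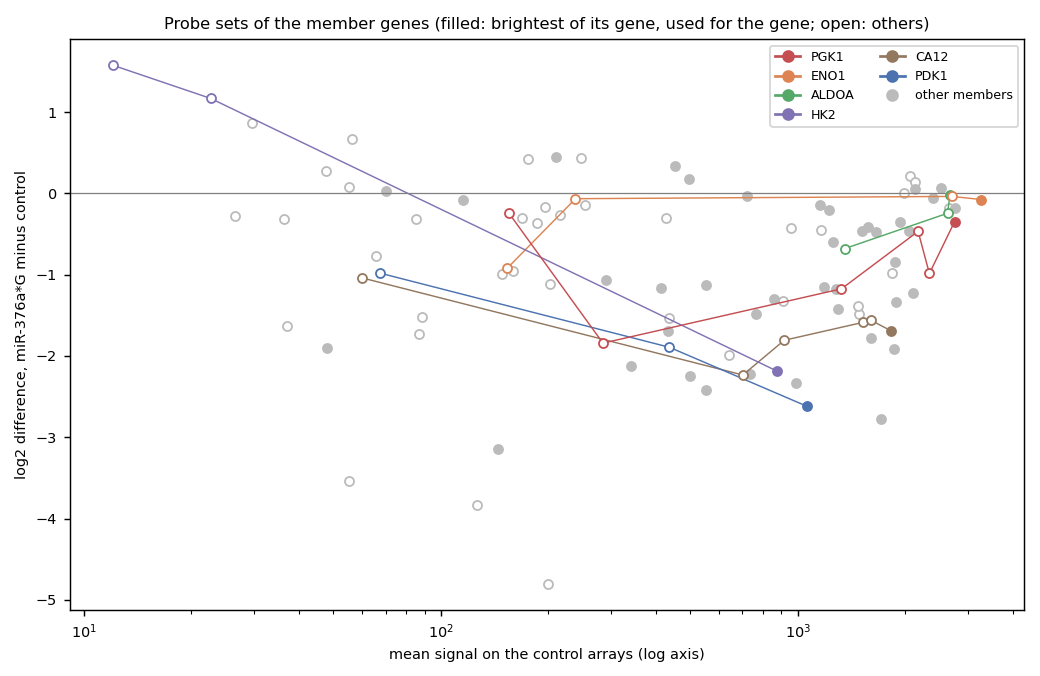
Log2 difference of miR-376a*G minus control (vertical axis) against the mean signal on control arrays (horizontal log axis) for the 102 tested probe sets of the hypoxia and glycolysis genes; filled points are the probe sets used for the genes and lines join probe sets of 6 genes. PGK1 gave -0.35 in its brightest probe set, -1.84 in a dim one and -0.24 in its dimmest, and HK2 crossed 0.

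The other HIF targets had the most negative median of the 3 classes, -1.38 between miR-376a*G and control, with 14 of 16 lower and 0 higher. It stayed negative under scaling to hybridisation controls, which moves all genes of an array together, at -0.98 with 14 lower and 1 higher. Apart from ANGPTL4, which was dim under miR-376a*G, these ranged from -2.77 for NDRG1 to -0.85 for P4HA2. CA9, a carbonic anhydrase often used as a hypoxia marker, was not analysed here.

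BNIP3L and BNIP3, receptors through which mitochondria are taken up for breakdown, were both lower. BNIP3L had a signal of 1837, 1949.8 and 1951 for miR-376a*A, 744, 775 and 709 for miR-376a*G and 1871, 1762 and 2010.1 for control, a difference of -1.34 between miR-376a*G and control (SE 0.08, adjusted p = 1.05e-05; -1.34 without both arrays). BNIP3 had a signal of 2015, 2446 and 2608 for miR-376a*A, 844, 1028 and 831 for miR-376a*G and 2217, 1913 and 2181 for control, a difference of -1.23 (SE 0.12, adjusted p = 0.000128; -1.19 without both arrays). In both genes the miR-376a*G arrays lay apart, while miR-376a*A and control overlapped.

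DDIT4 (REDD1), a stress-induced inhibitor of mTORC1, had a signal of 1734, 2314 and 2303 for miR-376a*A, 445, 503 and 529 for miR-376a*G and 2114, 1689 and 1796 for control. It was 3.78-fold lower under miR-376a*G than under control (-1.92, SE 0.14, adjusted p = 2.54e-05; -1.82 without both arrays). NDRG1, a stress-induced growth regulator, had a signal of 1424, 2281 and 2333 for miR-376a*A, 229.9, 251 and 260.2 for miR-376a*G and 2073, 1509.9 and 1545 for control. Its miR-376a*G arrays were 6.83-fold below control (-2.77, SE 0.20, adjusted p = 2.57e-05; -2.63 without both arrays). No array of miR-376a*G overlapped with another group in either gene.

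MXI1, a MYC antagonist, had a signal of 767, 871 and 798 for miR-376a*A, 377, 315 and 354 for miR-376a*G and 847, 893 and 842 for control (-1.30, SE 0.10, adjusted p = 3.33e-05; -1.31 without both arrays). ANKRD37, an ankyrin-repeat protein gene whose promoter is shown above, had a signal of 373, 573 and 532 for miR-376a*A, 90.0, 121 and 104 for miR-376a*G and 502, 508 and 489 for control (-2.25, SE 0.18, adjusted p = 3.88e-05; -2.25 without both arrays). Both sat lowest on the miR-376a*G arrays and overlapped between miR-376a*A and control.

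CA12, a membrane carbonic anhydrase that helps set pH outside the cell, had a signal of 1621, 2286 and 2460.2 for miR-376a*A, 521, 574 and 585 for miR-376a*G and 2208, 1594 and 1676 for control (-1.69, SE 0.17, adjusted p = 0.000143; -1.55 without both arrays). All 6 of its tested probe sets were lower under miR-376a*G, between -2.23 and -1.04. INSIG2, which holds back sterol synthesis, had a signal of 459, 547 and 721 for miR-376a*A, 116, 149.7 and 133 for miR-376a*G and 491, 381 and 427 for control (-1.70, SE 0.18, adjusted p = 0.000203; -1.60 without both arrays).

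Genes of secreted factors, collagen-modifying enzymes and a histone demethylase make up the rest of the 14. ANGPTL4, a secreted inhibitor of lipoprotein lipase, was at least 5.41-fold lower under miR-376a*G than under control with all arrays as labelled. This is a bound against the array median, since its miR-376a*G signals lay below it. The bound includes control replicate 1, at 241 against 94.0 and 97.8 for control replicates 2 and 3, and was not computed without it. The fitted log2 difference was -3.15 with a pseudocount of 1, -2.30 with 16 and -1.34 with 64 (adjusted p = 0.00213, 0.00505 and 0.0169), and another probe set gave -4.80. As for EGLN3, the filter was passed through the other groups alone, so these p-values follow a choice that favoured a difference. VEGFA, the main blood-vessel growth factor, gave -1.78 (SE 0.24, adjusted p = 0.000621), and ADM, a vessel-dilating peptide, gave -1.42 (SE 0.23, adjusted p = 0.00165). P4HA1 and P4HA2, collagen prolyl hydroxylases, gave -1.18 and -0.85, and KDM3A, a histone demethylase, gave -1.12. Without both arrays these 6 genes gave -2.71 (with a pseudocount of 1), -1.55, -1.24, -0.99, -0.73 and -1.004, all called.

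ERO1A, an oxidase of the endoplasmic reticulum that helps form disulphide bonds, had a signal of 236, 933 and 1035 for miR-376a*A, 458, 520.1 and 504 for miR-376a*G and 827, 282 and 254 for control. Its miR-376a*A and control groups each held 1 array on the side of the other, and the miR-376a*G arrays lay between. As labelled the difference between miR-376a*G and control was 0.34 (SE 0.59, adjusted p = 0.689). Without both arrays it was 0.88 (SE 0.09, adjusted p = 1.43e-05). As labelled the other ERO1A probe sets gave 0.43 and -0.30, neither called (adjusted p = 0.736 and 0.481). Between miR-376a*A and control these gave 0.93 and 0.31, also not called. Their values without both arrays are not given here. STC2, a secreted glycoprotein, had a signal of 446, 576 and 652 for miR-376a*A, 540.4, 557 and 581 for miR-376a*G and 575, 445 and 468 for control (0.18, SE 0.15, adjusted p = 0.394; 0.29 and adjusted p = 0.0114 without both arrays). These were the members of the class not lower under miR-376a*G.

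What miR-376a*A did relative to control depended on the arrays used, and both arrays were left out after seeing how they correlated. As labelled, its median difference from control was 0.06 for HIF regulators, 0.15 for glycolytic genes and 0.19 for other HIF targets, against -0.02 over all tested genes, and each of the 3 turned negative under scaling to hybridisation controls. Without both arrays the medians were 0.40, 0.27 and 0.55, against 0.00 over all tested genes. Then 3 regulators were higher and 1 lower, 11 glycolytic genes were higher and 2 lower, and 12 other HIF targets were higher and 0 lower. Of all tested genes 19.0% were higher and 22.9% lower.

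Without both arrays the largest of these differences between miR-376a*A and control was 1.87 for ERO1A (SE 0.10, adjusted p = 3.6e-07), followed by 1.48 for ANGPTL4 (SE 0.24, adjusted p = 0.000661). ANGPTL4 had a signal of 76.9, 255 and 283 for miR-376a*A, 14.004, 18.9 and 9.92 for miR-376a*G and 241, 94.0 and 97.8 for control, so replicate 1 of miR-376a*A lay nearest the control arrays and replicate 1 of control nearest the miR-376a*A arrays. VEGFA differed by 0.89 (adjusted p = 4.69e-05), with a signal of 1483, 2396 and 2590.3 for miR-376a*A, 414, 465 and 496 for miR-376a*G and 2133, 1384 and 1305 for control. ALDOC differed by 0.86, P4HA1 by 0.76, PFKFB4 by 0.75, INSIG2 by 0.64 and ADM by 0.62. Without both arrays all 8 were also called higher under miR-376a*A than under miR-376a*G, and as labelled all but ERO1A were (0.31, adjusted p = 0.708).

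Of the 31 genes called between miR-376a*G and control, 13 missed the threshold between miR-376a*A and control even without both arrays. These were PDK1 (0.11, adjusted p = 0.381), SLC2A1 (0.29, 0.0502), HK2 (0.29, 0.13), PFKFB3 (0.00, 0.991), ENO2 (-0.08, 0.553), ANKRD37 (0.15, 0.397), MXI1 (-0.06, 0.686), BNIP3L (0.05, 0.676), BNIP3 (0.31, 0.0529), EGLN3 (0.46, 0.191), PFKL (-0.04, 0.874), PFKP (0.03, 0.819) and HIF1AN (0.10, 0.477), each with its difference and adjusted p. The genes lower under miR-376a*A were PFKM (-0.59, adjusted p = 0.000183), SLC2A3 (-0.51, 0.000346) and ARNT (-0.51, 0.0413). ALDOA (0.33), GAPDH (0.43), LDHA (0.42), PGK1 (0.35) and TPI1 (0.29), bright glycolytic genes, were higher under miR-376a*A, with adjusted p-values from 0.00632 to 0.0314. The remaining genes higher under miR-376a*A were the alpha subunits EPAS1 (0.47) and HIF1A (0.40), the glycolytic genes PDK3 (0.55), HK1 (0.34), PGAM1 (0.27) and GPI (0.27), and the targets NDRG1 (0.59), P4HA2 (0.56), CA12 (0.54), STC2 (0.42), DDIT4 (0.41) and KDM3A (0.37).

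**Figure D4:**
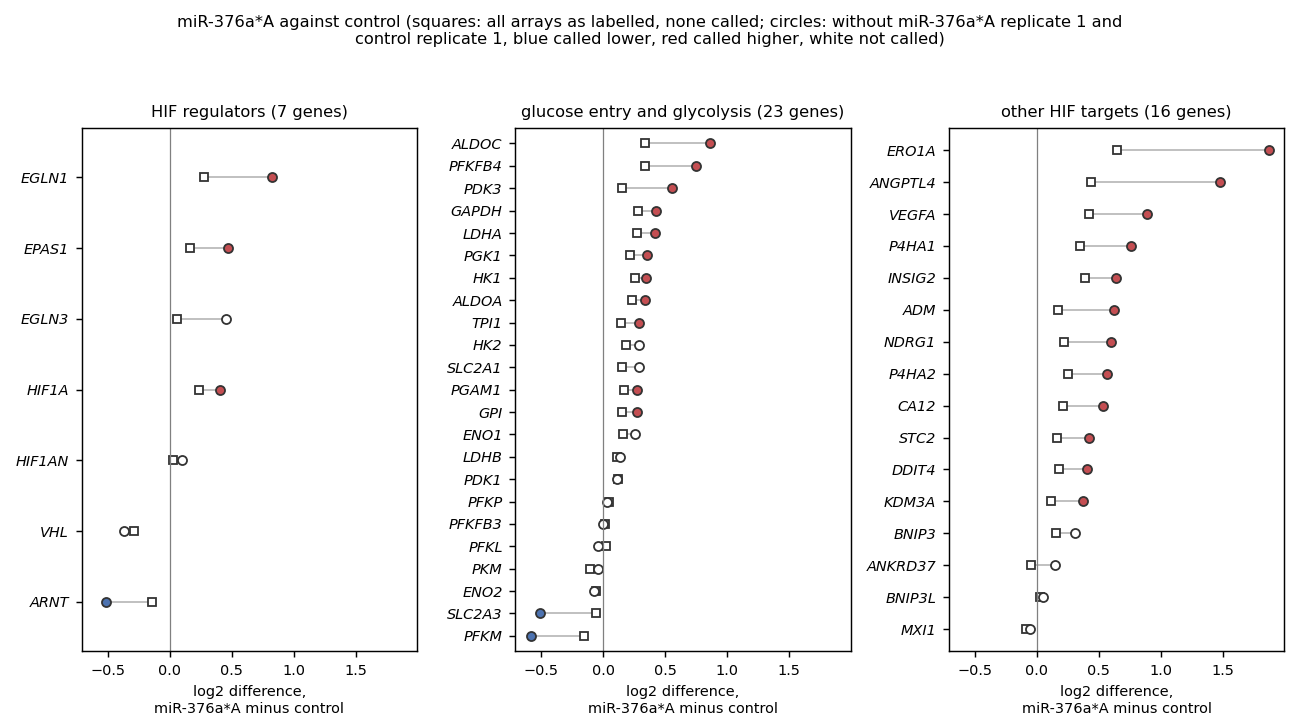
Log2 difference of miR-376a*A minus control (horizontal axis) for the 46 tested genes by class, as labelled (squares, 0 called) and without replicate 1 of miR-376a*A and of control (circles, 26 called higher in red, 3 called lower in blue). ERO1A lies at 0.65 as labelled and at 1.87 without both arrays; as labelled, the median of every class turned negative under scaling to hybridisation controls.

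The forms were also set against each other. With miR-376a*A set against miR-376a*G, 4 of 7 regulators, 16 of 23 glycolytic genes and 14 of 16 other HIF targets were higher under miR-376a*A. Of all tested genes 16.4% were higher. The class medians were 0.58, 0.56 and 1.56. Scaling to hybridisation controls turned the first 2 medians to -0.09 and -0.11, and left the last at 0.89. Without both arrays 4, 20 and 15 were higher, where 25.7% of all tested genes were, with class medians of 0.68, 0.66 and 1.81. With all arrays as labelled, ANGPTL4 was at least 7.34-fold higher under miR-376a*A, against the array median of miR-376a*G. Its adjusted p in the fit, 0.000969, follows a filter that favoured a difference in it. The differences were 2.99 for NDRG1 (SE 0.20, adjusted p = 1.76e-05), 2.75 for ALDOC (SE 0.28, adjusted p = 0.000132) and 2.74 for PDK1 (SE 0.10, adjusted p = 1.17e-06), and 3.22, 3.10 and 2.77 without both arrays. Here TPI1 (0.33, adjusted p = 0.0299) and LDHA (0.34, 0.0315) passed as well, but lost the call without miR-376a*A replicate 2 or 3 or miR-376a*G replicate 1 or 3, and EPAS1 (0.58, 0.0222) lost it without any 1 of those 4 arrays or miR-376a*G replicate 2. ALDOA, GAPDH and ENO1, not called between the forms as labelled, were called without miR-376a*A replicate 1 (0.32, 0.32 and 0.30), ALDOA and ENO1 also without miR-376a*G replicate 2, and ENO1 also without control replicate 2. HIF1AN was lower under miR-376a*A, and lost the call without miR-376a*A replicate 2 or miR-376a*G replicate 1 or 3.

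The wider pathway was read from 3 further lists, also chosen with earlier results of these data known. Of 25 further hypoxia-responsive genes, 23 were tested, and 16 were lower and 1 higher between miR-376a*G and control, with a median of -0.95, where 15.4% and 18.0% of all tested genes were called. The 4 of smallest p were TMEM45A (-1.83), a membrane protein gene, BHLHE40 (-1.54), a transcriptional repressor, GBE1 (-1.09), the glycogen branching enzyme, and ZNF395 (-2.85), a zinc finger protein gene, and the gene that was higher was COX4I2 (1.12), a cytochrome oxidase subunit. TMEM45A had a signal of 887, 986 and 1005 for miR-376a*A, 276, 269 and 280.5 for miR-376a*G and 991, 959 and 1000.4 for control. Without both arrays 17 of the 23 were lower and 2 higher, where 25.0% and 31.2% of all tested genes were. Among the 16 called lower from all arrays was PPFIA4, which lay below the array median on all 3 miR-376a*G arrays. It entered the test through the other groups alone, so the filter favoured a difference in it.

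The next list held HIF cofactors and subunits of the VHL ligase. Of 12 tested, 5 were lower and 1 higher between miR-376a*G and control, with a median of -0.32, which turned to 0.08 under scaling to hybridisation controls. Of all tested genes 15.4% were lower and 18.0% higher. Without both arrays 6 were lower and 2 higher, where 25.0% and 31.2% of all tested genes were. KDM4B (-1.05) and KDM4C (-0.78) are histone demethylases, CREBBP (-0.64) is the coactivator whose contact HIF1AN blocks, SIAH1 (-0.36) is a ligase that acts on the prolyl hydroxylases, and ELOC (0.30), the gene that was higher, is a subunit of the VHL ligase.

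The last list held glucose pathways beside glycolysis. Of 25 tested genes of the pentose phosphate, glycogen, hexosamine and pyruvate pathways, 5 were lower and 3 higher between miR-376a*G and control, with a median of 0.08, against 0.12 over all tested genes, of which 15.4% were lower and 18.0% higher. The list's shares were near those of all genes. PC, which feeds pyruvate into the citrate cycle as oxaloacetate, and BSG (-0.76), a chaperone of lactate transporters, were lower. PDHB (-0.38), the beta subunit of pyruvate dehydrogenase, was lower while DLD (0.42), a subunit which that complex shares with other dehydrogenases, was higher. PC had a signal of 77.9, 68.6 and 94.0 for miR-376a*A, 8.81, 17.3 and 16.6 for miR-376a*G and 73.8, 67.6 and 69.3 for control, with no overlap between miR-376a*G and the other groups. Its miR-376a*G signals lay below the array median, so it entered the test through the other groups alone. The filter therefore favoured a difference in PC, which against that median was at least 2.93-fold lower than in control with all arrays as labelled. Without both arrays 9 of the 25 were lower and 5 higher, where 25.0% and 31.2% of all tested genes were. Under scaling to hybridisation controls, which moves all genes of an array together, 1 was lower and 9 were higher.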

How the data were processed

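Gene expression was measured in U87 cells on 9 Affymetrix arrays in 3 groups of 3, each array grouped by its label. The authors deposited 1 linear intensity per probe set for 54675 probe sets, for which the submitters' processing notes name GCOS 1.4.0.036. How probes were summarised is not given in the sources used here, and the deposited intensity values were already scaled between arrays. Gene names came from the platform annotation, in which 41091 probe sets had 1 gene, 1801 had several and were left out, and 62 were control probe sets. The named genes numbered 19775, of which 19735 matched RefSeq (GRCh38.p14) and 0 needed another symbol.

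Values were analysed as log2(signal + 1), a scale that understates the change of dim genes. Genes entered the test when at least 3 arrays showed them above the median signal of that array, leaving 12587. Models with 1 coefficient per group were fitted to all 9 arrays with limma 3.58.1 in R 4.3.3 (lmFit, eBayes with trend), and p-values were adjusted by Benjamini-Hochberg over the tested genes in each comparison. The steps were tested on simulated data. The labels do not say which cultures the replicates came from, so p-values measure the spread between these arrays, whose number limits the precision.

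The genes and lists were chosen with earlier results of these data known. Per-array values are given for every tested regulator and, in each other class, for the 8 genes of smallest and the 2 of largest p between miR-376a*G and control; of each further list the 4 called genes of smallest p are named. COX4I2, ELOC and the added per-array values of ANGPTL4 and VEGFA fall outside this rule and were chosen after their values were seen. The alternatives tried were other pseudocounts, scalings, filters, variance priors, array weights, probe-set averaging, a replicate block and arrays left out. Every probe set was also fitted alone. The level of 2000, the bounds against the array median and the removal of both arrays that stood apart were chosen after seeing the data. The labels do not say whether the replicate numbers pair the samples, so the main fit used no pairing. Same-numbered arrays did not deviate together, but the arrays that stood apart shape that check, so it cannot decide the question.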

Additional observations from a re-analysis of the deposited data

How the results depend on the processing

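Between miR-376a*G and control the count of genes lower stayed within 25 to 33 under every alternative run, and the count higher was 0 with arrays centred on their medians, with the mean over probe sets or with the replicate block, 3 with array weights or without both arrays that stood apart, and 7 with scaling to hybridisation controls. Leaving out each array in turn gave 28 to 31 lower and 0 to 1 higher. Between miR-376a*A and control, 0 genes were called as labelled and under every alternative except array weights, which gave 29 higher and 4 lower, and leaving out both arrays, which gave 26 higher and 3 lower. Without both arrays 19.0% of all tested genes were higher and 22.9% lower. The shares with array weights or with scaling to hybridisation controls are not given here. For miR-376a*A set against miR-376a*G the count lower was 0 with centred arrays or the replicate block, 2 without both arrays, 4 with array weights and 12 with scaling to hybridisation controls, and leaving out each array gave 31 to 37 higher and 0 to 1 lower. Array weights were 0.154 and 0.165 for the arrays that stood apart, against 0.674 to 2.93 for the others.

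Scaling to hybridisation controls, which shifts all genes together, turned these values between miR-376a*G and control: HIF1A to 0.047, PGK1 to 0.051, ALDOA to 0.38, ENO1 to 0.32 and LDHA to 0.34. For miR-376a*A set against miR-376a*G it turned HIF1A to -0.081, EPAS1 to -0.094, HK1 to -0.21, PFKP to -0.14, ALDOA to -0.42, TPI1 to -0.34, GAPDH to -0.46, PGK1 to -0.11, PGAM1 to -0.034, ENO1 to -0.43, PKM to -0.64, LDHA to -0.33 and LDHB to -0.61. The mean over a gene's probe sets turned HIF1AN to -0.0093 and HK2 to 0.18 between miR-376a*G and control, and HIF1AN to 0.073 between the forms, since their probe sets differed in direction. Of the 138 gene values, 46 gained a call and 0 lost one with array weights, and 40 gained and 0 lost one without both arrays.

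The replicate block, which pairs arrays by label number, gave 28 lower genes between miR-376a*G and control and 31 higher between the forms. Arrays correlated best with their own number in 2 of 18 checks. Those checks used deviations from the group means as labelled, in which replicate 1 of miR-376a*A and of control correlated at -0.88. The arrays that stood apart thus shape the checks, which cannot show whether the numbers pair cultures. Signals near the top of an array's range may limit what can be said of bright genes such as ENO1, GAPDH, ALDOA and TPI1, which was not tested. Dim probe sets such as EGLN2 could not be tested.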

Other observations

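Genes of pyruvate and sugar-phosphate pathways outside glycolysis differed between miR-376a*A and control once both arrays that stood apart were left out. Of 25 tested, 12 were lower under miR-376a*A and 2 were higher, where 22.9% of all tested genes were lower and 19.0% were higher, and as labelled 0 were called. GFPT1, the first enzyme of hexosamine synthesis, had a signal of 806, 139 and 203 for miR-376a*A, 614, 626 and 636 for miR-376a*G and 177, 661 and 738 for control. Replicate 1 of miR-376a*A and of control each lay with the other group, and the log2 difference between miR-376a*A and control was -2.05 without both arrays (SE 0.15, adjusted p = 2.54e-06), against -0.64 as labelled (SE 0.68, adjusted p = 0.886).

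PDP1, the phosphatase that reopens pyruvate dehydrogenase, differed by -1.34 without both arrays (adjusted p = 5.31e-06), and PDHX, DLAT and PDHA1, subunits of that dehydrogenase complex, by -0.95, -0.85 and -0.44. PGD of the pentose phosphate pathway differed by -0.79 and the mitochondrial pyruvate carrier MPC1 by -0.93, while MPC2 (0.52) and TIGAR (1.15), a sugar bisphosphatase, were higher under miR-376a*A. HKDC1, a hexokinase-like gene, had a signal of 69.6, 28.4 and 15.96 for miR-376a*A, 169.7, 167 and 184 for miR-376a*G and 18.2, 51.5 and 54.5 for control. It was higher under miR-376a*G than under control, at 2.19 (SE 0.53, adjusted p = 0.0127; 1.69 without both arrays). These genes were chosen after their values were seen.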
